A study of Rattus norvegicus with 36 samples.

Results

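The mRNAs of 4 G protein-coupled receptors, the opioid receptors Oprm1 (mu), Oprk1 (kappa) and Oprd1 (delta) and the cannabinoid receptor Cnr1, were followed across the nucleus accumbens of 9 Sprague-Dawley rats. They were taken by their Ensembl identifiers (ENSRNOG00000018191 for Oprm1, ENSRNOG00000007647 for Oprk1, ENSRNOG00000010531 for Oprd1 and ENSRNOG00000008223 for Cnr1), 4 of the 32402 genes listed. In conditioned place preference an animal comes to prefer the compartment where it was given a drug. There were 3 groups of 3 rats, all 8 weeks old. CPPE rats, also called dependent in the labels, received 4 daily cocaine injections, 15 days of withdrawal and a last cocaine injection of 5 mg/kg, and expressed the place preference. nCPPE rats, called non-dependent, had the same cocaine schedule and did not express it. Saline rats received physiological serum in place of the 4 cocaine injections and saline in place of the last one. A preference test of 18 min followed the last injection in every group, and 12 days of extinction are mentioned in the series text. The rats' sex, the conditioning dose and the criterion parting CPPE from nCPPE rats are not stated. All libraries are labelled nucleus accumbens, and the extraction protocol also names the caudate putamen. Marker genes of the tissue could not be checked, because identifiers other than the 4 receptors' are not paired with gene names in the files or in the reference used here.

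The 4 receptors share their mode of action. Each couples to inhibitory G proteins of the Gi/o class, which lower adenylyl cyclase activity, open inwardly rectifying potassium channels and close presynaptic calcium channels. The mu receptor binds endorphins and enkephalins and is concentrated in the patch compartment of the striatum. The delta receptor prefers enkephalins and is prominent on striatal cholinergic interneurons, the kappa receptor binds dynorphins and sits on dopamine terminals, and the cannabinoid receptor binds endocannabinoids released backwards from the postsynaptic cell. In the accumbens all 4 are known as modulators of transmitter release and of drug reward. An mRNA level measured in tissue covers only the cells whose bodies lie there, so receptors carried on incoming axons from other regions are not seen in it. In such tissue, fewer cells of a type and less RNA per cell cannot be told apart.

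Values are read counts, and CPM values (counts-per-million units) are those counts scaled to a common library total with TMM factors (trimmed mean of M values). Summed over 4 technical replicates, the rats had 27724289 to 39067715 counts. All 4 receptors passed the filter on low counts, which left 15555 genes for testing. CPM values are not adjusted for transcript length, so levels are compared between rats and not between receptors. In the GRCr8 annotation the span of Oprm1 overlaps that of Ipcef1 on the opposite strand, the long non-coding RNA gene LOC134484992 on the same strand and a pseudogene. The span of Cnr1 overlaps a long non-coding RNA gene and a pseudogene. The sources used here do not give the strand setting of the authors' counting, so reads of these overlapping genes may have been added to or removed from the 2 receptors' counts, and those of a gene on the same strand may be so under any setting.

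The sequences just upstream of the annotated starts are shown because the gene counts pool all transcripts of a gene whatever start they use, and Oprm1 has 2 annotated starts among them. Each line gives the 250 bases before a start, 5′ to 3′ on the gene's own strand, from RefSeq (GRCr8). Entries were available for 2 of the 4 receptors, Oprm1 and Oprd1. The windows lie at chr1:45585733-45585982 (plus strand) and chr1:45565121-45565370 (plus strand) for Oprm1 and at chr5:149625000-149625249 (minus strand) for Oprd1. Capitals mark matches, on either strand, to the motifs described after the sequences.
Oprm1, inner start: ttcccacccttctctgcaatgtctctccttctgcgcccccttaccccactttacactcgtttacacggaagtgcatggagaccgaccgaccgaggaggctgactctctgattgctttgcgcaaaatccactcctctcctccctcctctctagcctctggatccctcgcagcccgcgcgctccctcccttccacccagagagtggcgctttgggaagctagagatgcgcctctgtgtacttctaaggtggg
Oprm1, outer start: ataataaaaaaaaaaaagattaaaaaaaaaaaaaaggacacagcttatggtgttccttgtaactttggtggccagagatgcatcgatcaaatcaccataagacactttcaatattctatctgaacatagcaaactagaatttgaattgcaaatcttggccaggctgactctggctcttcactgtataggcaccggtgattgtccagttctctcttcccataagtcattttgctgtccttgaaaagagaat
Oprd1: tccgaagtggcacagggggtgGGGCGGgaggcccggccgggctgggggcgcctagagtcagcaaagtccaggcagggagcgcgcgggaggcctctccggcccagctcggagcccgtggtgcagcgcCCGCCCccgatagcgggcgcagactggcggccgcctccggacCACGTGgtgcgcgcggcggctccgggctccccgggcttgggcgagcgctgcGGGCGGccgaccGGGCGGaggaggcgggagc

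The search, on both strands, covered 5 motifs: the cyclic AMP response element TGACGTCA, its half-site TGACG, which overlaps every full site, the AP-1 site TGANTCA, the E-box CACGTG and the GC box GGGCGG. The Oprd1 window held 4 GC boxes and 1 E-box, and the Oprm1 windows held none of the 5 motifs. Of 33469 promoter windows of the same length, 30.5% held a GC box, 5.59% the E-box, 18.2% the half-site, 6.34% the AP-1 site and 1.59% the full cyclic AMP element. G and C made up 79.6% of the Oprd1 window, 58.4% of the inner and 36.4% of the outer Oprm1 window, beside a median of 51.2% over all windows. A match describes letters and is not evidence of binding.

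One library stood apart from the rest over much of the transcriptome, and it did so in the receptors too. This rat, Saline 2, had more than a 2-fold lower level than the mean of the other 8 rats in 20.5% of tested genes, beside 0.855% to 2.22% for each other rat. Oprm1 had 0.358 CPM in Saline 2 against a mean of 3.75 CPM in the other rats, 10.5-fold lower. Oprk1 had 5.27 against 30.9 CPM (5.87-fold lower) and Oprd1 1.00 against 3.13 CPM (3.12-fold lower). Cnr1 had 37.4 against 65.8 CPM (1.76-fold lower). The 3 opioid receptors thus lay beyond 2-fold and Cnr1 did not, and Saline 2 was the lowest rat for all 4. As a description, 1.43% of tested genes were at least as low as Oprm1 in that rat, 3.9% as Oprk1, 10.9% as Oprd1 and 24.4% as Cnr1. The low levels of Oprm1 and Oprk1 stood in each technical replicate of Saline 2, with 2, 2, 4 and 2 counts of Oprm1 and 39, 36, 36 and 36 of Oprk1. Oprd1 was less even there, with 8, 5, 3 and 12 counts. Technical replicates come from the same rat, so they are not independent evidence of its level. The only other receptor value beyond 2-fold from the other rats' mean was Oprm1 in nCPPE 2, at 1.503 against 3.61 CPM. The cause of the distance of Saline 2 was not tested, and every comparison with Saline is given with and without this rat.

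**Figure D1:**
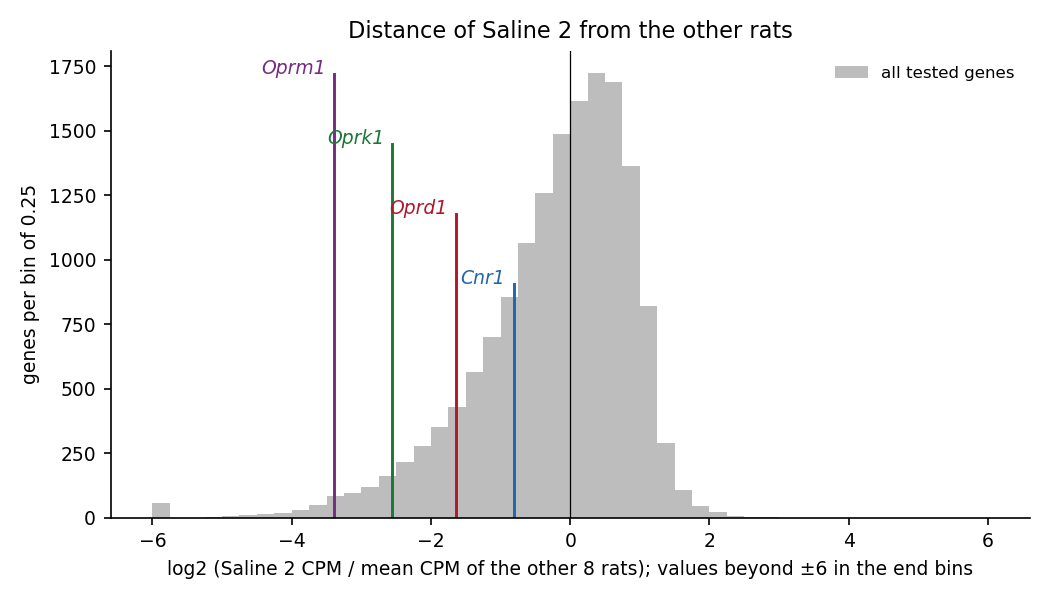
Histogram of the log2 ratio of CPM in Saline 2 to the mean CPM of the other 8 rats over 15555 tested genes (grey bars, y axis in genes per bin, genes with no count in Saline 2 in the leftmost bin), with vertical lines for the 4 receptors. Oprm1 lies farthest to the left, at -3.39, followed by Oprk1 at -2.56, Oprd1 at -1.64 and Cnr1 at -0.81.

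The comparison of cocaine-exposed with Saline rats asked what 4 cocaine injections and a later reinstating injection left in receptor mRNA. Oprd1 was the receptor whose groups stood apart. It had 2.58, 4.37 and 3.06 CPM in CPPE rats and 3.72, 2.62 and 4.40 CPM in nCPPE rats, against 2.42, 1.00 and 1.84 CPM in Saline rats. Every cocaine rat therefore lay above every Saline rat, though the margin between CPPE 1 and Saline 1 was narrow. These 2 rats had 80 and 70 counts, and their 95% Poisson intervals, 2.04 to 3.21 CPM in CPPE 1 and 1.89 to 3.06 CPM in Saline 1, overlap. Such intervals cover counting error only.

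Mean Oprd1 in cocaine rats was 3.46 ± 0.827 CPM (SD, n = 6), against 1.75 ± 0.713 CPM in Saline rats (n = 3). The edgeR log2 difference was 0.98 ± 0.32 (SE), with a 95% interval of 0.24 to 1.71, or 1.97-fold (1.18 to 3.27). In edgeR's quasi-likelihood test this difference had an unadjusted p of 0.0148 and, with Benjamini-Hochberg adjustment over all 15555 genes, an adjusted p of 0.825, so it did not pass the threshold of 0.05. An exact permutation test (two-sided, 84 possible splits) gave p = 0.0238, the smallest that 6 against 3 rats can give, and 0.812 after adjustment over all genes. Groups without overlap in this direction were found for 86 of the 15555 tested genes (0.553%), and in either direction for 1.03%. Without Saline 2 the log2 difference was 0.70 ± 0.28 (95% interval 0.08 to 1.32, unadjusted p = 0.0308 and adjusted p = 0.734 in edgeR). The 6 cocaine rats then lay above the 2 remaining Saline rats, as for 5.16% of genes. The exact permutation test without Saline 2 gave p = 0.0714, the smallest that its 28 splits allow, and 0.629 after adjustment over all genes.

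Taken by group, Oprd1 averaged 3.33 ± 0.925 CPM (SD, n = 3) in CPPE rats, against the Saline mean of 1.75 CPM, a log2 difference of 0.93 ± 0.36 (SE, edgeR unadjusted p = 0.0306, adjusted p = 0.882). Such separation in this direction held for 2.93% of tested genes (5.72% in either direction). In nCPPE rats it averaged 3.58 ± 0.898 CPM, a log2 difference from Saline of 1.03 ± 0.36 (edgeR unadjusted p = 0.0196, adjusted p = 0.937), where 2.12% of genes were separated in this direction (4.02% in either). These comparisons use the same 3 Saline rats and are not independent. Without Saline 2 the log2 differences were 0.65 ± 0.30 for CPPE and 0.75 ± 0.30 for nCPPE rats, with 11.8% and 12.5% of genes wholly above Saline in those comparisons. Exact permutation of 3 against 3 rats gave p = 0.1 in each case, the smallest that this number of rats allows. Without Saline 2 the permutation p was 0.2 in each case, again the smallest possible.

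**Figure D2:**
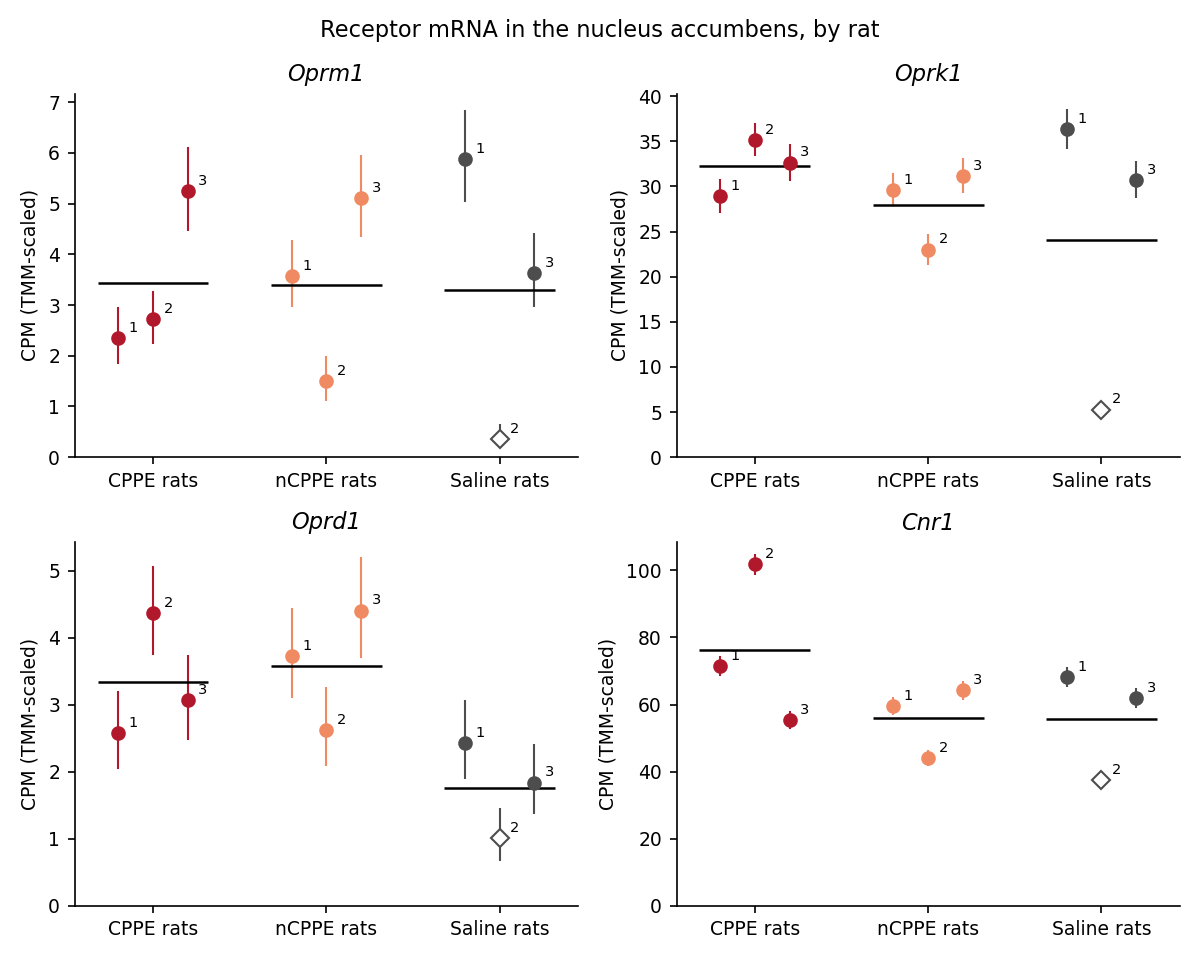
TMM-scaled CPM of each receptor in every rat, in CPPE, nCPPE and Saline rats from left to right, with 95% Poisson intervals of the counts as error bars, the rat number beside each point, black lines at the group means and an open diamond for Saline 2. All 6 cocaine rats lie above the 3 Saline rats in the Oprd1 panel, at 2.58 to 4.40 against 1.00 to 2.42 CPM, and the groups overlap in the other panels.

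Oprm1, the main target of morphine-like drugs, varied most between rats. It had 2.35, 2.72 and 5.24 CPM in CPPE rats and 3.58, 1.503 and 5.10 CPM in nCPPE rats, against 5.88, 0.358 and 3.64 CPM in Saline rats. High and low rats occurred in every group. Its means were 3.44 ± 1.58 CPM in CPPE, 3.39 ± 1.81 CPM in nCPPE and 3.29 ± 2.78 CPM in Saline rats (± SD of 3 rats). The coefficient of variation over the 8 rats other than Saline 2 was 41.2%, while counting error alone gives 10.1% at these counts. The difference between the highest and lowest of these 8 rats was 3.91-fold.

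For Oprm1 the log2 difference of cocaine from Saline rats was 0.05 ± 0.68 (SE, edgeR adjusted p = 0.980) with all rats. Without Saline 2 its sign turned and it was -0.48 ± 0.43 (edgeR adjusted p = 0.841), with a 95% interval of -1.44 to 0.48. These data therefore allowed changes of Oprm1 of more than 2-fold to lower levels after cocaine, and more than 2-fold to higher levels with all rats (-1.505 to 1.61).

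Oprk1, the dynorphin receptor, had 28.9, 35.2 and 32.6 CPM in CPPE rats and 29.6, 23.0 and 31.2 CPM in nCPPE rats, against 36.3, 5.27 and 30.7 CPM in Saline rats. Apart from Saline 2 its levels were the most even of the 4 receptors, with a coefficient of variation of 13.3% over 8 rats. With all rats the log2 difference of cocaine from Saline was 0.32 ± 0.47 (edgeR adjusted p = 0.848). Without Saline 2 it was -0.16 ± 0.12 (edgeR adjusted p = 0.826), and the 95% interval, -0.44 to 0.12, excluded a 2-fold difference in either direction. The sign of the Oprk1 difference thus rested on Saline 2, as did the width of its interval, -0.76 to 1.39 with all rats.

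Cnr1, the cannabinoid receptor, rested on 1045 to 4010 counts per rat. It had 71.5, 101.8 and 55.2 CPM in CPPE rats and 59.6, 44.0 and 64.3 CPM in nCPPE rats, against 68.1, 37.4 and 62.0 CPM in Saline rats. CPPE 2 was high and nCPPE 2 and Saline 2 were low, and the groups overlapped. The log2 difference of cocaine from Saline rats was 0.23 ± 0.25 with all rats (edgeR adjusted p = 0.825) and 0.0075 ± 0.21 without Saline 2 (edgeR adjusted p = 0.996). Both 95% intervals, -0.34 to 0.79 and -0.46 to 0.48, excluded a 2-fold difference, while the upper limit reached 1.07 without Saline 1 and 1.003 without Saline 3.

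Within each cocaine group, Oprm1, Oprk1 and Cnr1 likewise gave no difference from Saline that passed the edgeR test. For CPPE against Saline the log2 differences were 0.06 ± 0.79 for Oprm1, 0.42 ± 0.54 for Oprk1 and 0.45 ± 0.29 for Cnr1 with all rats, and -0.47 ± 0.48, -0.05 ± 0.14 and 0.23 ± 0.23 without Saline 2. For nCPPE against Saline they were 0.04 ± 0.79, 0.21 ± 0.54 and 0.0032 ± 0.29 with all rats, and -0.49 ± 0.48, -0.26 ± 0.14 and -0.22 ± 0.23 without Saline 2. Oprd1 was thus the receptor whose difference from Saline kept its sign in both cocaine groups when Saline 2 was left out, together with Cnr1 in CPPE rats.

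Setting CPPE beside nCPPE rats asks which receptors went with expressing the preference under the same cocaine schedule. The groups overlapped in each of the 4 receptors, while 8.49% of tested genes showed no overlap. With all rats Cnr1 had the largest estimated difference, with a CPPE mean of 76.2 ± 23.6 CPM and an nCPPE mean of 55.9 ± 10.6 CPM (SD, n = 3 each). The log2 difference was 0.45 ± 0.29 (SE, 95% interval -0.20 to 1.09, edgeR unadjusted p = 0.154, adjusted p = 1.00). Much of this lay with CPPE 2, since without that rat the log2 difference was 0.18 ± 0.28. With Saline 2 out of the shared spread it was again 0.45, with an SE of 0.21 and an interval of -0.02 to 0.92 (edgeR unadjusted p = 0.0589, adjusted p = 0.971).

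The opioid receptors had smaller estimated differences between these groups with all rats, but this ranking was not firm. Without CPPE 2 the log2 difference was -0.35 for Oprd1 and 0.18 for Cnr1. Oprk1 had a CPPE mean of 32.2 ± 3.15 CPM and an nCPPE mean of 27.9 ± 4.35 CPM. Its log2 difference with all rats was 0.21 ± 0.54, and the interval of -1.01 to 1.43 allowed more than 2-fold in either direction. Without Saline 2 it was 0.21 ± 0.12, where the interval of -0.07 to 0.49 excluded a 2-fold difference. With all rats Oprm1 gave 0.02 ± 0.79 and Oprd1 -0.10 ± 0.35. For Oprd1 the interval was -0.90 to 0.69, and it reached beyond 2-fold without CPPE 2 (lower limit -1.25), CPPE 3 (-1.01), nCPPE 1 (-1.05) or nCPPE 2 (-1.17), or without nCPPE 3 (upper limit 1.003). For Oprm1 it was -1.77 to 1.80. With all rats each adjusted p in edgeR was 1.00, and without Saline 2 it was 0.971 for Oprk1 and 0.983 for Oprd1.

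**Figure D3:**
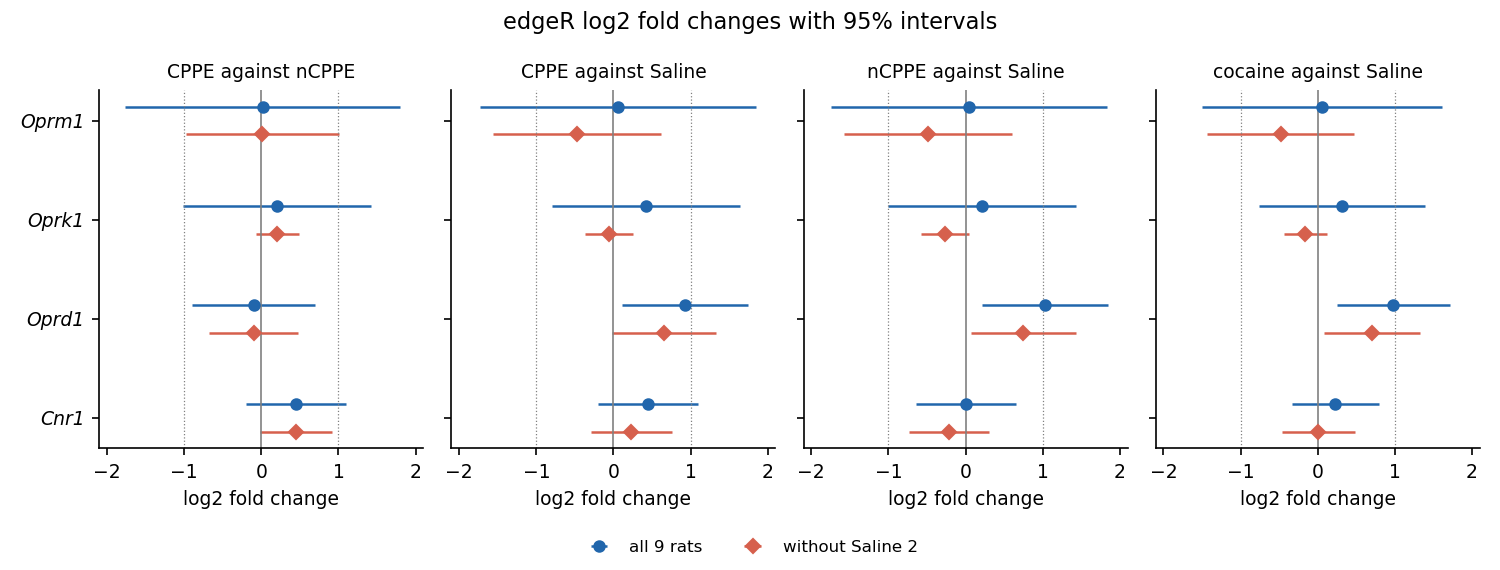
edgeR log2 fold changes (x axis) of the 4 receptors in each comparison with 95% intervals, from the fit with all 9 rats (blue circles) and without Saline 2 (red diamonds), with dotted lines at 2-fold. Oprd1 lies right of 0 in the comparisons with Saline, at 0.65 to 1.03, while Oprm1 and Oprk1 change sign there when Saline 2 is left out.

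None of the 4 receptors was called changed in any of the 4 comparisons, and edgeR called 0 of 15555 genes (0%) in each of them. At an unadjusted p below 0.05 the CPPE-nCPPE comparison had 84 genes (0.54%). With Saline as the control there were 139 (0.894%) for CPPE, 179 (1.15%) for nCPPE and 193 (1.24%) for all cocaine rats, with Oprd1 among them each time. These shares depended on Saline 2. Without that rat the 4 comparisons had, in the same order, 556, 929, 964 and 1055 of 15750 genes below 0.05. Oprd1 was then among them for nCPPE and for all cocaine rats against Saline, and not for CPPE. The unadjusted p of Oprd1 in edgeR for CPPE against Saline was 0.119 without CPPE 2, 0.0575 without Saline 2 and 0.0582 without Saline 3. For nCPPE against Saline it was 0.0681 without nCPPE 3. DESeq2 called 2, 0, 2 and 1 genes in the same order, no receptor among them, and limma-voom with quality weights called 0. The median log2 difference of the 4 receptors was 0.11 in the CPPE-nCPPE comparison and, against Saline, 0.43 for CPPE, 0.13 for nCPPE and 0.27 for all cocaine rats, beside medians over all genes of -0.001, -0.012, -0.007 and -0.011. Without Saline 2 these receptor medians were 0.11, 0.09, -0.24 and -0.08. The estimated spread was larger with Saline 2 for each receptor. The biological coefficient of variation with all rats and without Saline 2 was 66.4% and 37.2% for Oprm1, 45.9% and 11.1% for Oprk1, 30.8% and 22.5% for Oprd1, and 25.9% and 17.9% for Cnr1.

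A share within a rat does not depend on how libraries are scaled. Of the summed counts of the 3 opioid receptors, Oprk1 made up 76.7% to 85.4% in cocaine rats and 79.5% to 84.9% in Saline rats. Because longer transcripts gather more reads, these shares describe differences between rats and not relative numbers of mRNA molecules. The Oprd1 share was 7.61%, 10.3% and 7.48% in CPPE rats and 10.1%, 9.67% and 10.8% in nCPPE rats, against 5.43%, 15.1% and 5.07% in Saline rats. Saline 1 and Saline 3 were thus the 2 lowest rats and Saline 2 the highest, on 28 of 185 counts (95% Wilson interval 10.7% to 21.0%). The mean difference of cocaine from Saline rats was 0.79 percentage points with all rats and 4.08 without Saline 2. The Oprm1 share ran from 5.54% (nCPPE 2) to 12.8% (CPPE 3) in cocaine rats, against 5.41% to 13.2% in Saline rats. No test is given for these shares, which are built from the receptors themselves.

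**Figure D4:**
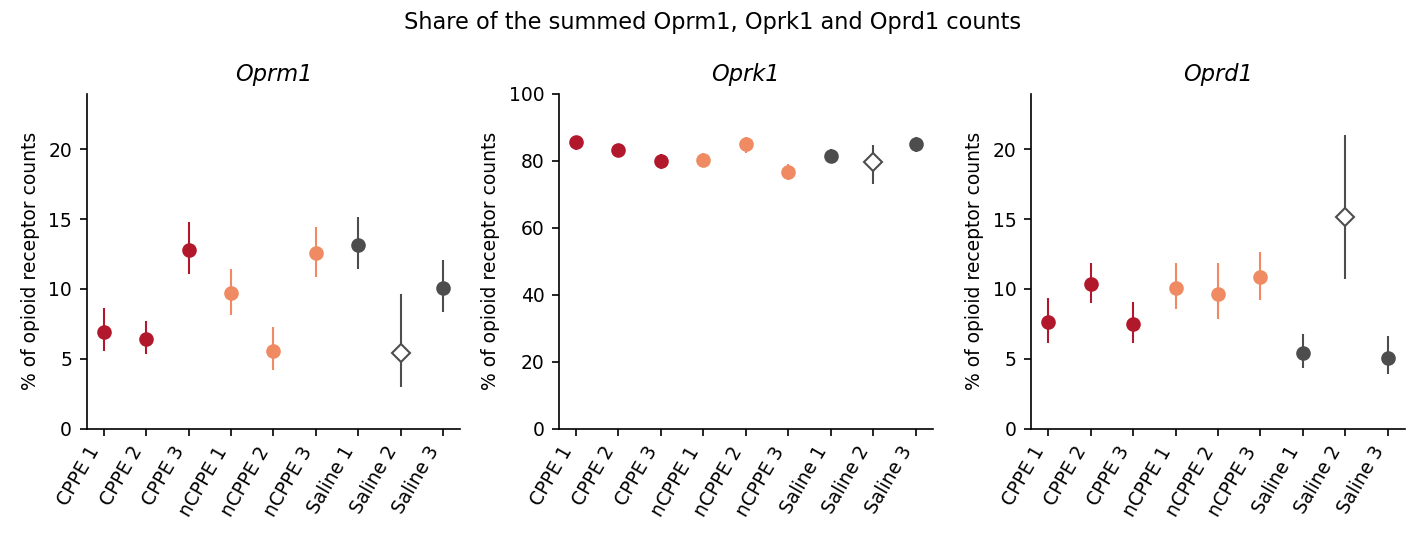
Share of the summed Oprm1, Oprk1 and Oprd1 counts taken by each receptor, in percent, in each rat with 95% Wilson intervals (coloured points: red CPPE, orange nCPPE, dark grey Saline, open diamond Saline 2). The y axis of the Oprk1 panel runs to 100% and those of the other panels to 24%. The Oprd1 share is 7.48% to 10.8% in cocaine rats, against 5.07% and 5.43% in Saline 3 and Saline 1 and 15.1% in Saline 2.

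The number of Oprd1 counts per Cnr1 count, which does not depend on library scaling, was 0.0360, 0.0429 and 0.0554 in CPPE rats and 0.0625, 0.0595 and 0.0685 in nCPPE rats, against 0.0356, 0.0268 and 0.0296 in Saline rats. Every nCPPE rat was above every CPPE rat and every CPPE rat above every Saline rat. CPPE 1 and Saline 1 were nearly equal, at 0.03604 and 0.03559, on only 80 and 70 Oprd1 counts. Counting error alone could reverse these 2 rats. CPPE 3 and nCPPE 2 were also close, at 0.05542 and 0.05955, on 94 and 82 Oprd1 counts. Their order could be reversed by counting error as well. Saline 2 lay with the other Saline rats in this ratio, although both genes were low in it, and in no other receptor pair. Among 15554 genes set over Cnr1 in the same way, 2 (0.0129%) showed this order, Oprd1 being 1 of them. The order of the groups was also taken from the values, so this share does not measure how rare such a pattern is. The ratio was picked after its values were seen, from 6 receptor pairs, so it is given without a test.

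The 4 receptors did not rank the rats alike. For Oprm1 the order from high to low began with Saline 1, CPPE 3 and nCPPE 3, for Oprk1 with Saline 1, CPPE 2 and CPPE 3, for Oprd1 with nCPPE 3, CPPE 2 and nCPPE 1, and for Cnr1 with CPPE 2, CPPE 1 and Saline 1. nCPPE 2 was the second lowest rat for Oprm1, Oprk1 and Cnr1, and the fifth highest for Oprd1. By group mean with all rats, the order was CPPE, nCPPE, Saline for Oprm1, Oprk1 and Cnr1 and nCPPE, CPPE, Saline for Oprd1. Of neighbours in these orders, CPPE and nCPPE did not separate for any receptor, and nCPPE and Saline overlapped for Oprm1, Oprk1 and Cnr1. Without Saline 2 the Saline mean was the highest for Oprm1, at 4.76 CPM, and for Oprk1, at 33.5 CPM, and for Cnr1 it lay between CPPE and nCPPE, at 65.02 CPM.

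For each receptor the gene with the most similar profile was sought over the 8 rats other than Saline 2, by the root-mean-square difference of log2 CPM after centring, among genes averaging 5 CPM or more over all 9 rats whose SD was at least 0.8 times the receptor's. Because their identifiers carry no names, the closest 1 is given for each. ENSRNOG00000023657 followed Oprm1 with a root-mean-square difference of 0.10 on the log2 scale, beside an SD of Oprm1 of 0.66. It had 8.37, 9.77 and 16.8 CPM in CPPE rats and 11.7, 5.18 and 16.1 CPM in nCPPE rats, against 17.9 and 10.4 CPM in Saline 1 and Saline 3. In Saline 2, which entered the search only through the minimum mean level, it had 2.51 CPM. For Oprk1 it was ENSRNOG00000050343 (difference 0.05, SD of Oprk1 0.20), with 4.59 CPM in Saline 2 and a mean of 11.5 CPM elsewhere. For Oprd1 it was ENSRNOG00000010888 (difference 0.10, SD of Oprd1 0.43), with 3.76 CPM in Saline 2 and a mean of 9.12 CPM elsewhere. For Cnr1 it was ENSRNOG00000002413 (difference 0.13, SD of Cnr1 0.34), with 9.46 CPM in Saline 2 and a mean of 4.83 CPM elsewhere. That gene passed the minimum only through Saline 2. With the minimum set on the other 8 rats, an alternative chosen after seeing the data, the closest gene to Cnr1 was ENSRNOG00000003614 (difference 0.14), with 6.67 CPM in Saline 2 and a mean of 16.1 CPM elsewhere. The closest genes to the opioid receptors were the same under that setting. The second closest to Oprd1 (difference 0.18) had 35.6 CPM in Saline 2 and a mean of 18.8 CPM elsewhere, so likeness over 8 rats did not fix the level in Saline 2. These genes were chosen for their likeness among 87 candidates for Oprm1, 2766 for Oprk1, 316 for Oprd1 and 662 for Cnr1, so the likeness is a description and no test is given.

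**Figure D5:**
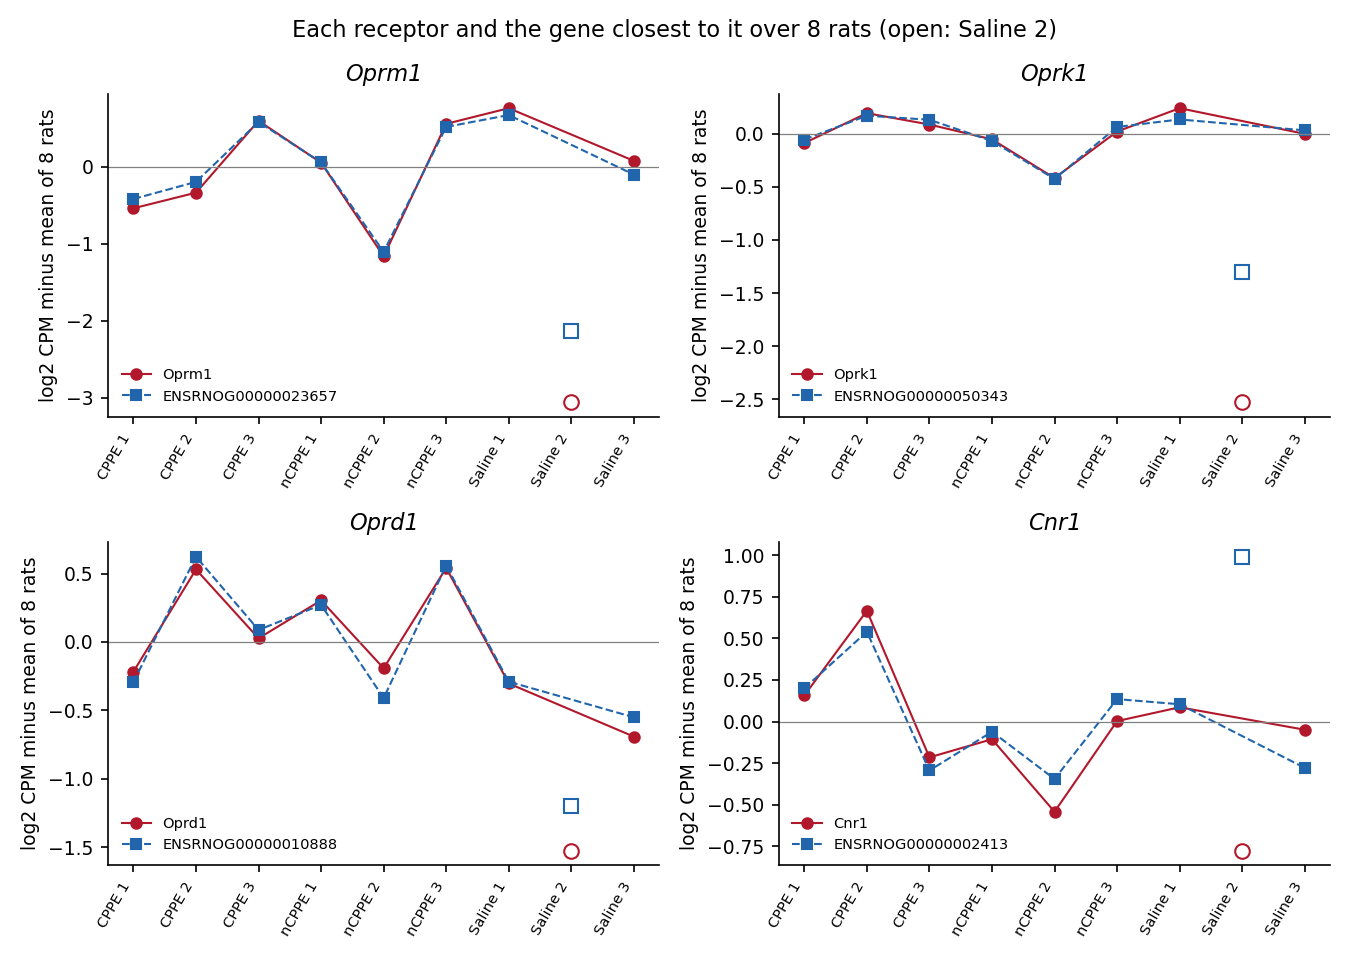
Centred log2 CPM (y axis) of each receptor (red circles) and of the gene closest to it (blue squares) in each rat, with lines over the 8 rats used for the search and open symbols for Saline 2. Among the 8 rats the Oprm1 pair is lowest in nCPPE 2 and highest in Saline 1, and in Saline 2 the genes closest to Oprm1, Oprk1 and Oprd1 lie below the other rats while the gene drawn for Cnr1, which lies above them, passed the minimum of 5 CPM only through that rat.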

How the data were processed

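Per the labels' protocols, polyadenylated RNA from 300 ng of total RNA was made into strand-specific libraries (TruSeq Stranded mRNA). The submitters' processing notes name HTSeq 0.5.3 for counting software, STAR (no version) and bcl2fastq 2.18.0.12. Genome build, annotation release and strand setting: not given in the sources used here. Each of the 36 deposited tables holds unnormalized read counts for Ensembl genes, 4 technical replicates for each of 9 rats, with totals of 6771828 to 9961469 counts per replicate. Replicates of a rat differed by no more than sampling noise (chi-square per degree of freedom 1.00 to 1.02 over genes with at least 40 counts) and were summed. In 36 such tests of the receptors, the smallest adjusted p was 0.835.

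Counts were tested with edgeR 4.0.16 (R 4.3.3) using filterByExpr, TMM scaling and quasi-likelihood F-tests with group as the factor over all 9 rats, with Benjamini-Hochberg adjustment over 15555 genes. Standard errors are the log2 fold change divided by the root of F. Log2 CPM used a prior count of 2. Exact permutation tests (numpy 2.4.6) were adjusted over all genes. Alternatives were other scalings, no filter, DESeq2 1.42.0, limma 3.58.1, only the compared groups, a replicate block and each rat left out. The fits were tested on simulated data. Each rat was taken as 1 animal, and pooling is not stated.

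The receptors were always named. Other genes were named by likeness of profile. The receptors and lists were chosen with earlier results of these data known. Lists of other opioid, endocannabinoid, Gi/o and cell type marker genes were set by symbol and not tested, because 0 rows of the reference carried an Ensembl identifier. Permutation p-values and shares were planned with adjustment over the receptors alone, which is not given.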

Additional observations from a re-analysis of the deposited data

How the results depend on the processing

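No receptor with an adjusted p passed the threshold of 0.05 under any of 17 alternatives, the smallest being 0.464. DESeq2 without Saline 2 gave no adjusted p for Oprm1 and Oprd1 in CPPE and in cocaine against Saline. Oprd1 kept its positive log2 difference from Saline in every alternative (lowest under limma-voom, at 0.62, 0.51 and 0.73 for cocaine, CPPE and nCPPE rats), with 0.70 to 1.29 for cocaine, 0.65 to 1.24 for CPPE and 0.75 to 1.34 for nCPPE rats when single rats were left out. Its unadjusted p ran from 0.00373 to 0.036 for cocaine, 0.0134 to 0.119 for CPPE and 0.00779 to 0.0681 for nCPPE against Saline. Signs turned for Oprm1 under limma-voom with quality weights, which gave Saline 2 a weight of 0.03 (-0.46 for CPPE, -0.58 for nCPPE and -0.52 for cocaine against Saline), for Oprk1 (-0.081, -0.24 and -0.16) and for Cnr1 (-0.21 for nCPPE and -0.075 for cocaine). Cnr1 in nCPPE against Saline was -0.0014 by relative log expression scaling and by DESeq2. With single rats left out (DESeq2 without Saline 2, added after seeing the data, included), differences from Saline ran from -0.47 to 0.78 (CPPE), -0.49 to 0.77 (nCPPE) and -0.48 to 0.77 (cocaine) for Oprm1, -0.055 (DESeq2 -0.054) to 0.84, -0.26 (DESeq2 -0.27) to 0.64 and -0.16 to 0.74 for Oprk1, and -0.22 to 0.18 for Cnr1 in nCPPE rats. CPPE against nCPPE ran from -0.42 to 0.43 for Oprm1 and from -0.35 to 0.073 for Oprd1. It ran from 0.09 to 0.29 for Oprk1 and from 0.18 to 0.63 for Cnr1, both positive in every alternative. For Cnr1 the unadjusted p ran from 0.0236 (DESeq2 without Saline 2) to 0.547 (edgeR without CPPE 2). No adjusted p of Cnr1 there was below 0.971. For Oprm1 the sign also turned in 1 or more comparisons without CPPE 3, nCPPE 2 or nCPPE 3, for Oprd1 without CPPE 1 or nCPPE 3, and for Cnr1 without nCPPE 1 or nCPPE 3. Shares of opioid receptor counts, cocaine minus Saline, ran from -2.623 to 1.264 percentage points for Oprm1, -1.463 to 1.247 for Oprk1 and -0.9497 to 4.083 for Oprd1. The cause of these turns was not tested. DESeq2 called 2 genes for CPPE against nCPPE, 2 for nCPPE against Saline and 1 for cocaine against Saline, and without Saline 2 it called 1, 12 (CPPE against Saline), 6 and 27. The replicate block, with rat number as a factor, gave Oprd1 a log2 difference of 1.01 for cocaine against Saline (edgeR adjusted p = 0.788) and changed no sign or call. Correlations of same-numbered rats, on deviations from group means, ran from -0.447 to 0.257, beside -0.33 to 0.357 for differently numbered rats. With so few rats in a group these values cannot decide whether the numbers paired rats. For cocaine against Saline the fit to only the compared groups is the reported one. Oprm1 and Oprd1 rest on 10 to 172 counts per rat, which limits their precision.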

Other observations

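In 2 further ratios of receptor counts, picked after their values were seen, Saline 2 lay apart from the other Saline rats. Oprm1 counts per Oprd1 count were 0.913, 0.622 and 1.71 in CPPE rats and 0.960, 0.573 and 1.16 in nCPPE rats, against 2.43, 0.357 and 1.98 in Saline rats. Saline 1 and Saline 3 were the highest of the 9 rats and Saline 2 the lowest. Oprk1 counts per Cnr1 count were 0.346 to 0.591 in the cocaine rats, against 0.534 and 0.496 in Saline 1 and Saline 3 and 0.141 in Saline 2. Saline 2 was below Saline 1 and Saline 3 in the remaining pairs too. It had 0.00957 Oprm1 counts per Cnr1 count, against 0.0864 and 0.0587. Oprk1 counts per Oprd1 count were 5.25 against 15.0 and 16.7, and Oprm1 counts per Oprk1 count 0.0680 against 0.162 and 0.118.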
